A study of Rattus norvegicus with 10 samples.

Results

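The genes described here are 34 genes of the synaptic vesicle and the active zone, all of them found by symbol among the 17168 rows of the deposited count table. They were matched to a written list of vesicle proteins, synaptotagmins, SNARE proteins, complexins and active zone scaffolds. The 10 rats sampled were TgF344-AD females, 11 months old, and RNA was taken from the hippocampus of the left side. The 5 untreated rats (untreated 1 to 5) ate rodent chow, and the 5 ibudilast rats ate ibudilast chow for 6 months from 5 months of age. All 10 rats carried the human transgenes of this Alzheimer disease model, mutant amyloid precursor protein and presenilin, driven by the mouse prion promoter, and no rats without them were analysed here. Each library is 1 rat. Ibudilast inhibits several phosphodiesterases that break down cyclic AMP.

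Neurotransmitter is held in synaptic vesicles, which dock at a specialised patch of the presynaptic membrane called the active zone. There, scaffold proteins hold the vesicle close to calcium channels and prime it, and a synaptotagmin on the vesicle senses calcium and lets SNARE proteins fuse the membranes. Most of these proteins come from small gene families, whose members differ in speed, in calcium affinity and in the neurons that use them. A bulk hippocampal library averages all those neurons, and fewer cells of a type and less RNA per cell cannot be told apart in it.

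Total estimated counts were between 6960066 and 10121571 per library. Ibudilast 3 stood apart from the other libraries: its summed level of 8 cerebellar granule and Purkinje cell markers was 3795 CPM (counts brought to a common library size, with TMM factors between libraries), against 19.7 to 86.3 CPM in the other 9, and Fat2 led them at 1196 CPM. Ibudilast 3 and ibudilast 5 held the most meningeal marker signal, 853 and 985 CPM (31.1 to 188 CPM elsewhere), and untreated 1 the most from choroid plexus markers, 2546 CPM (2.82 to 69.6 CPM elsewhere). Pituitary markers summed to 58.1 CPM in ibudilast 1 and 31.2 CPM in ibudilast 3 (0.704 to 6.76 CPM elsewhere). Oligodendrocyte markers summed to 17940, 12596 and 11013 CPM in untreated 1, untreated 4 and ibudilast 2 (5327 to 6556 CPM elsewhere). The 9 neocortical markers in the table summed to between 192 and 235 CPM in untreated rats and between 310.3 and 842 CPM in treated rats, without overlap, and Lamp5 was the most abundant of them (51.7 to 97.4 without and 103 to 247 CPM with the drug). The 11 markers of hippocampal principal cells in the table summed to between 665 and 1711 CPM in untreated rats and between 393 and 958 CPM in treated rats, with Spink8 and Lefty1 at or below 0.450 and 0.442 CPM.

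All 34 genes passed the filter on low counts. Of them, 15 rose and 0 fell with ibudilast, and 19 did not pass (quasi-likelihood test of edgeR, threshold 0.05 on p adjusted by Benjamini and Hochberg over the 11682 genes tested; at an unadjusted p under 0.05 it was 19 and 0). The 15 are 44.1% of the 34, where 38.5% of all tested genes were called in either direction, 20.0% of all tested genes rose and 18.5% fell. A rise that passed and was at least 2-fold was seen for 9 of the 34, against 6.25% of all genes. In 8 genes every ibudilast library lay above every untreated library, as in 12.5% of all genes, and in 0 genes every ibudilast library lay below, as in 11.7% of all genes. The median log2 fold change was 0.60 over the 34 genes and 0.0071 over all tested genes, and 28 of the 34 values were above 0. By role, 5 of 6 calcium sensors rose, 4 of 8 active zone genes, 4 of 11 vesicle protein genes, 1 of 3 complexins and 1 of 6 genes for SNARE proteins and the factors that recycle them.

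**Figure D1:**
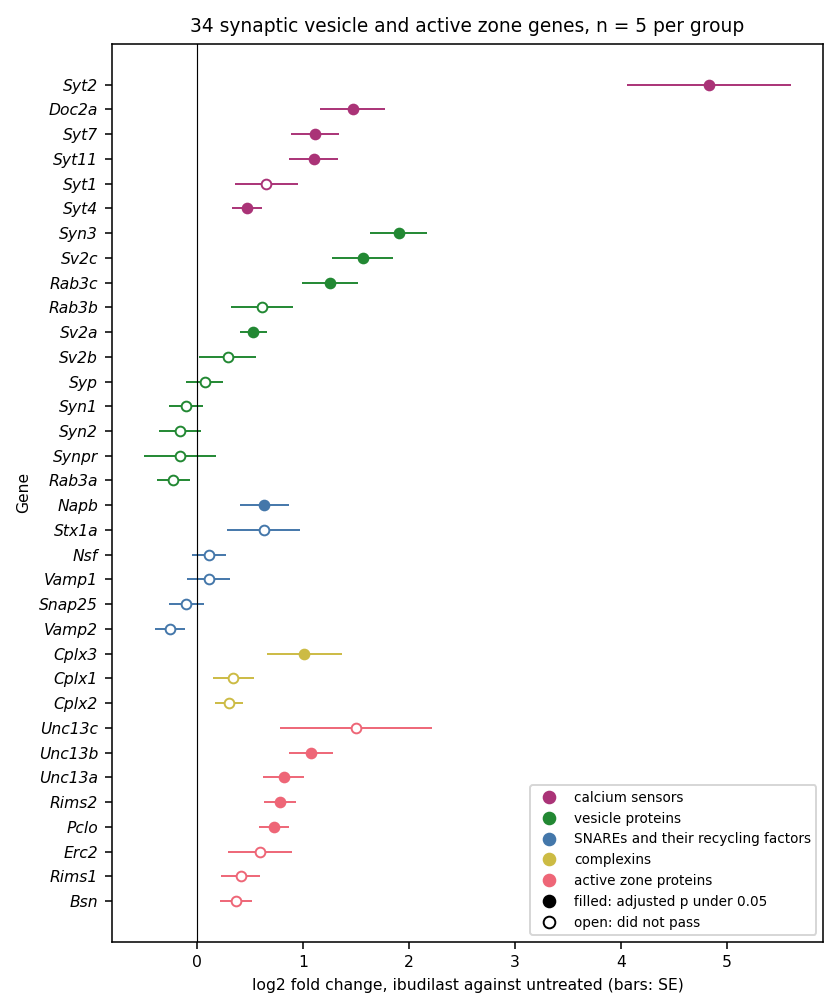
Log2 fold change of each of the 34 genes, ibudilast against untreated (x axis, n = 5 per group), with bars for the standard error and colours for the role; filled points passed the adjusted threshold of 0.05 over all tested genes. The calcium sensors lie to the right of 0, with Syt2 at 4.83, and the genes left of 0 are Syn1, Syn2, Synpr, Rab3a, Snap25 and Vamp2, none of which passed.

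Promoter sequences are shown for Syt1 and Syt2, the pair whose ratio differed most, for Vamp1 and Vamp2, a pair whose ratio did not pass, and for Syn1, which holds 2 of the motifs searched; Syn3 matched no entry. Each is the 250 bases before the annotated start in RefSeq (GRCr8), 5′ to 3′ on the gene's strand; 29 of the 34 genes matched an entry. Capitals mark 3 motifs searched on both strands. These were the cyclic AMP response element TGACGTCA, the Egr motif GCGGGGGCG with its reverse CGCCCCCGC, and the E-box CACGTG, which share no bases with each other in the windows shown.
Syt1 (chr7:46244214-46244463, minus strand): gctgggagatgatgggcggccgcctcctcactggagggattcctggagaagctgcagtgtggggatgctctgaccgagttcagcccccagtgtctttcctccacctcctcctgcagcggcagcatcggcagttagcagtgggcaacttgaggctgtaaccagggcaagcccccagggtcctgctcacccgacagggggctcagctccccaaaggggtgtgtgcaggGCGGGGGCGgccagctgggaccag
Syt2 (chr13:48736872-48737121, plus strand): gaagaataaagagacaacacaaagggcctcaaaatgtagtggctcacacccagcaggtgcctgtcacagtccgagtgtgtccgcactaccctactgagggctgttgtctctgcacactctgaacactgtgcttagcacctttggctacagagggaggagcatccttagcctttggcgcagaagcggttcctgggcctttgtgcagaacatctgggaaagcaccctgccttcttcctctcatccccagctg
Vamp1 (chr4:159698644-159698893, plus strand): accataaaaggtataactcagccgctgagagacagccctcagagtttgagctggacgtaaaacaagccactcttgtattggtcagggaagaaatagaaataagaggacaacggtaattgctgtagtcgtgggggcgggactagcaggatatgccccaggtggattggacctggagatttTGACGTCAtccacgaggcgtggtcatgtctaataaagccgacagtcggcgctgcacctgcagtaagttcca
Vamp2 (chr10:54292539-54292788, plus strand): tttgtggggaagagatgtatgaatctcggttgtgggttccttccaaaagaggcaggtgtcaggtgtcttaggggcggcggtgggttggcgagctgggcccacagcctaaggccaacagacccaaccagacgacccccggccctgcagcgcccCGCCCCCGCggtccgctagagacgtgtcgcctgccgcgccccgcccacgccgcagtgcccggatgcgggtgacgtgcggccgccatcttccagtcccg
Syn1 (chrX:3725495-3725744, plus strand): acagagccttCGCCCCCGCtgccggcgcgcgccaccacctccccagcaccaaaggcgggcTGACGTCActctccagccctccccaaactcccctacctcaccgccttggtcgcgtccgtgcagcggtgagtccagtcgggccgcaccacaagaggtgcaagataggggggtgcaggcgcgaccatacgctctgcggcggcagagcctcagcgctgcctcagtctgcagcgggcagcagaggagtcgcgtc
None of the 3 motifs is in the Syt2 window. The Egr motif was found for 6 of the 29 genes, Syn1, Syn2, Syp, Syt1, Vamp2 and Nsf, and in 2.45% of all 33469 promoter windows of the same length. The motif is rich in G and C, and so were these 6 windows, with 66.0 to 69.6% GC and 8 to 32 CpG, against medians of 51.2% and 5 over all windows. The cyclic AMP response element was in the windows of Syn1 and Vamp1 (1.59% of all windows), and the E-box in those of Cplx3 and Nsf (5.59% of all windows). These matches are of letters only, and binding was not measured.

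Synaptotagmins and Doc2a hold the calcium sensing step of release, and this group had the highest share of genes that rose. Syt2, a fast sensor close to Syt1 that is best known from brainstem, cerebellum and parvalbumin interneurons, stood at 2.95, 1.71, 5.61, 3.49 and 3.17 CPM in untreated 1 to 5 and at 13.3, 75.1, 287, 62.2 and 42.8 CPM in ibudilast 1 to 5. The groups did not overlap, ibudilast 3 was the highest and ibudilast 1 the lowest of the treated libraries. The log2 fold change was 4.83 ± 0.77 (SE; edgeR adjusted p = 0.00144), and without ibudilast 3 it was 3.84 (edgeR adjusted p = 0.000546). Parvalbumin itself (Pvalb) lay between 46.6 and 89.3 CPM in untreated rats, and was at 60.6, 113, 459.7, 117 and 78.7 CPM in ibudilast 1 to 5. Its part in the Syt2 result was not tested. Syt1, the main fast sensor of forebrain neurons, stood at 316, 242, 458, 396 and 598 CPM in untreated 1 to 5 and at 520.1, 745, 308, 905 and 684 CPM in ibudilast 1 to 5. Here the groups overlapped, since untreated 5 lay above ibudilast 1, and ibudilast 3 below 4 of the untreated libraries. Syt1 did not pass (log2 fold change 0.65 ± 0.29, SE; edgeR adjusted p = 0.0984). It passed without ibudilast 3 (0.83, edgeR adjusted p = 0.0189) or untreated 5 (0.87, edgeR adjusted p = 0.0417).

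The slower or atypical sensors rose as well. Syt7, a high-affinity sensor of asynchronous release, stood at 48.9, 64.7, 41.7, 112 and 77.0 CPM in untreated 1 to 5 and at 133, 153, 150.1, 165 and 146 CPM in ibudilast 1 to 5. The treated values lay close together and above all untreated ones (log2 fold change 1.12 ± 0.23, SE; edgeR adjusted p = 0.00392). Doc2a, a high-affinity sensor of spontaneous and asynchronous release, stood at 13.7, 20.2, 12.6, 22.3 and 22.9 CPM in untreated 1 to 5 and at 36.1, 68.4, 23.2, 71.7 and 54.5 CPM in ibudilast 1 to 5. Ibudilast 3 lay only just above untreated 5, and the groups did not overlap (log2 fold change 1.47 ± 0.30, SE; edgeR adjusted p = 0.00422). Syt11 and Syt4 encode atypical synaptotagmins whose first calcium-binding domain does not bind calcium in the usual way. Syt11 went from 243 ± 76.8 to 522 ± 119 CPM (SD, n = 5 each). Ibudilast 3 at 319.8 CPM lay below untreated 5 at 353 CPM. Its log2 fold change was 1.10 ± 0.23 (SE; edgeR adjusted p = 0.00457). Syt4, which neuronal activity induces, went from 246 ± 40.4 to 341 ± 57.1 CPM and had the smallest change of the sensors that rose (log2 fold change 0.47, edgeR adjusted p = 0.0235). The call of Syt4 was lost in the fits that left out untreated 1 (0.45), untreated 2 (0.41), untreated 4 (0.43) or ibudilast 4 (0.40), with edgeR adjusted p of 0.0524 to 0.0577.

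Among the proteins of the vesicle itself, Syn3, Sv2c, Rab3c and Sv2a rose, and the other 7 of 11 genes did not pass. Syn3, the synapsin linked to immature neurons, stood at 2.80, 4.04, 3.83, 4.56 and 7.17 CPM in untreated 1 to 5 and at 13.7, 18.9, 11.0, 23.1 and 17.3 CPM in ibudilast 1 to 5. All treated libraries lay above all untreated ones, ibudilast 4 the highest (log2 fold change 1.90 ± 0.27, SE; edgeR adjusted p = 0.00103). By contrast Syn1, whose protein tethers vesicles to each other and to actin, stood at 1272, 1181, 1209.6, 1199 and 1223 CPM in untreated 1 to 5 and at 1227, 1219, 672, 1344 and 1202 CPM in ibudilast 1 to 5. Of these 10 libraries 9 lay between 1181 and 1344 CPM, and ibudilast 3 stood alone below them (log2 fold change -0.10 ± 0.16, SE; edgeR adjusted p = 0.637). Syn2, the second major synapsin, had a log2 fold change of -0.16 and an edgeR adjusted p = 0.537. Sv2c, the member of the SV2 glycoproteins best known from the basal ganglia, stood at 2.21, 3.43, 2.19, 2.95 and 4.41 CPM in untreated 1 to 5 and at 5.99, 8.55, 14.8, 8.68 and 7.11 CPM in ibudilast 1 to 5. The groups did not overlap and ibudilast 3 was highest (log2 fold change 1.56 ± 0.29, SE; edgeR adjusted p = 0.00251, and 1.32 without ibudilast 3, edgeR adjusted p = 0.00204). Sv2a, the binding site of the antiseizure drug levetiracetam, went from 392 ± 57.4 to 567 ± 71.3 CPM (SD, n = 5 each), again without overlap (log2 fold change 0.53 ± 0.13, SE; edgeR adjusted p = 0.00786). Sv2b, its close relative, ran from 258 to 741 CPM in untreated and from 397 to 801 CPM in treated libraries and did not pass (edgeR adjusted p = 0.416).

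Rab3 proteins are small GTPases that carry vesicles to the active zone. Rab3c stood at 12.5, 15.1, 16.1, 12.6 and 26.8 CPM in untreated 1 to 5 and at 33.1, 40.6, 23.5, 57.6 and 43.4 CPM in ibudilast 1 to 5. Only untreated 5, which lay above ibudilast 3, made the groups overlap (log2 fold change 1.25 ± 0.26, SE; edgeR adjusted p = 0.00448). Rab3a, the most studied of the family, did not pass (-0.22 ± 0.15 on the log2 scale, SE; edgeR adjusted p = 0.266). Rab3b, from 22.9 to 71.0 CPM without and from 42.7 to 87.9 CPM with the drug, did not pass with all libraries (0.61, edgeR adjusted p = 0.112) and passed without ibudilast 3 (0.76, edgeR adjusted p = 0.0407). The vesicle membrane protein gene Syp, widely used as a marker of synapses, did not pass (0.07 ± 0.18 on the log2 scale, SE; edgeR adjusted p = 0.771). Synpr, which encodes its relative synaptoporin of mossy fibre terminals, ran from 67.9 to 116 CPM in untreated and from 24.2 to 134 CPM in treated libraries, with ibudilast 3 the lowest (log2 fold change -0.16 ± 0.34, SE; edgeR adjusted p = 0.731).

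The SNARE genes showed the smallest median change of the 5 roles, 0.11 on the log2 scale. Snap25, a SNARE of the presynaptic membrane, stood at 4893, 2939, 4164, 3583 and 3598 CPM in untreated 1 to 5 and at 2901, 3966, 3324, 4339 and 3340.3 CPM in ibudilast 1 to 5. The highest value was in untreated 1 and the lowest in ibudilast 1, and the groups overlapped (log2 fold change -0.10 ± 0.16, SE; edgeR adjusted p = 0.647). Vamp2, the vesicle SNARE of most forebrain synapses, stood at 1849, 1755, 2095, 1652 and 1868 CPM in untreated 1 to 5 and at 1699.9, 1639.8, 1074, 1773 and 1553 CPM in ibudilast 1 to 5. Ibudilast 3 lay below the other 9 libraries, and Vamp2 did not pass (log2 fold change -0.25 ± 0.14, SE; edgeR adjusted p = 0.176). Vamp1, the vesicle SNARE better known from brainstem and spinal cord, stood at 370.3, 203, 403, 305 and 309 CPM in untreated 1 to 5 and at 259.5, 363, 476, 345 and 274 CPM in ibudilast 1 to 5. Its highest value was in ibudilast 3 and its lowest in untreated 2 (log2 fold change 0.11 ± 0.20, SE; edgeR adjusted p = 0.692). Stx1a, the syntaxin of the presynaptic membrane, ran from 149 to 221 CPM in untreated libraries and stood at 286, 368, 83.3, 485 and 289.8 CPM in ibudilast 1 to 5. Ibudilast 3 was below all 5 untreated libraries and the other 4 treated libraries above them. Stx1a did not pass with all libraries (0.63 ± 0.34, SE; edgeR adjusted p = 0.167) and passed without ibudilast 3 (0.87, edgeR adjusted p = 0.00265).

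SNARE complexes are taken apart after fusion by the ATPase NSF and its SNAP adaptors. Nsf did not pass (log2 fold change 0.11 ± 0.16, SE; edgeR adjusted p = 0.596). Napb, which encodes the brain form of the adaptor, went from 66.6 ± 23.1 to 103 ± 21.0 CPM (SD, n = 5 each; log2 fold change 0.63 ± 0.23, SE; edgeR adjusted p = 0.0482). Of the 10 fits that each lacked 1 library, those lacking untreated 5 or ibudilast 3 called Napb and the other 8 did not, over log2 fold changes of 0.50 to 0.84. Complexins clamp and then trigger SNARE complexes. Cplx3, a complexin of retinal ribbon synapses and deep cortical neurons, stood at 12.1, 33.0, 10.9, 11.4 and 14.6 CPM in untreated 1 to 5 and at 37.3, 28.7, 16.7, 34.6 and 48.9 CPM in ibudilast 1 to 5. Untreated 2 lay among the treated libraries, and the other untreated ones lay below all of them (log2 fold change 1.01 ± 0.35, SE; edgeR adjusted p = 0.041). Such fits called Cplx3 where they lacked untreated 2 (1.44) or ibudilast 3 (1.19), and its values ran from 0.83 to 1.44. Cplx1 and Cplx2, the main complexins of the brain, had log2 fold changes of 0.34 ± 0.19 and 0.30 ± 0.13 (SE) and did not pass (edgeR adjusted p = 0.174 and 0.0932).

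All 8 active zone genes had log2 fold changes above 0, and Unc13b, Unc13a, Rims2 and Pclo rose. Unc13 genes encode the Munc13 proteins that prime vesicles for fusion. Unc13b stood at 22.4, 20.3, 26.1, 29.0 and 26.6 CPM in untreated 1 to 5 and at 45.2, 56.6, 30.3, 72.5 and 57.4 CPM in ibudilast 1 to 5. The untreated libraries lay within a narrow range and all below the treated ones (log2 fold change 1.07 ± 0.20, SE; edgeR adjusted p = 0.00292). Unc13a, the main priming factor of glutamate synapses, went from 153 ± 44.1 to 269 ± 43.9 CPM (SD, n = 5 each; log2 fold change 0.82 ± 0.19, SE; edgeR adjusted p = 0.00789), with ibudilast 3 below untreated 4. Unc13c, best known from cerebellar granule cells, stood at 16.3, 43.0, 8.61, 18.1 and 16.3 CPM in untreated 1 to 5 and at 23.7, 18.7, 200.5, 22.4 and 24.8 CPM in ibudilast 1 to 5. Ibudilast 3 held the high value, and it is the library with cerebellar markers at 3795 CPM. Unc13c did not pass with all libraries (1.50 ± 0.72, SE; edgeR adjusted p = 0.118), and without ibudilast 3 its log2 fold change was 0.13 (edgeR adjusted p = 0.784).

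RIM proteins link vesicle, Munc13 and calcium channel. Rims2 stood at 64.1, 97.5, 82.4, 79.2 and 102 CPM in untreated 1 to 5 and at 116, 159, 136, 182 and 137 CPM in ibudilast 1 to 5, without overlap (log2 fold change 0.78 ± 0.15, SE; edgeR adjusted p = 0.00302). Rims1 had 374 CPM in untreated 2 against 206 to 253 CPM in the other untreated and 254 to 433 CPM in the treated libraries. Rims1 did not pass with all libraries (0.41, edgeR adjusted p = 0.0954), and passed without untreated 2 (0.59, edgeR adjusted p = 0.0136) or ibudilast 3 (0.51, edgeR adjusted p = 0.0397). Piccolo and Bassoon are the giant scaffolds of the zone. For piccolo, Pclo stood at 169, 168, 195, 208 and 258 CPM in untreated 1 to 5 and at 258, 312, 390.5, 356 and 331 CPM in ibudilast 1 to 5. Untreated 5 and ibudilast 1 were level, and the groups were otherwise apart (log2 fold change 0.72 ± 0.14, SE; edgeR adjusted p = 0.00359). For bassoon, Bsn ran from 640.3 to 859 CPM in untreated and from 668 to 1139 CPM in treated libraries, and did not pass (0.37 ± 0.15, SE; edgeR adjusted p = 0.073). It passed without ibudilast 3 (0.47) or untreated 5 (0.47), at edgeR adjusted p of 0.012 and 0.0305. Erc2, a scaffold that binds RIM and bassoon, had 27.0 CPM in ibudilast 3, the lowest of the 10, and 65.6 to 94.7 CPM in the other 4 treated libraries. It passed only without ibudilast 3 among the fits with 1 library left out (0.81, edgeR adjusted p = 0.00805, against 0.60 and 0.136 with all libraries).

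Whether the ratio of paralogs differed between the groups was tested within each library, on log2 of (CPM + 0.5) of one gene over the other. Transcript length cancels in the difference of this log2 ratio between groups, while the ratio itself does not compare levels per length. The mix of neurons in a library does not cancel in it, and no ratio was tested with a marker score as a covariate. Of 17 ratios, 4 differed between the groups, each with the first named gene gaining on the second: Syt2/Syt1, Syn3/Syn1, Sv2c/Sv2a and Rab3c/Rab3a (two-sided exact permutation test, p = 0.00794, the smallest that the 252 arrangements allow, and 0.0337 adjusted over the 17 ratios). In these 4 all 5 treated libraries lay above all 5 untreated ones. The log2 ratio of Syt2 to Syt1 went from -6.70 ± 0.41 to -3.30 ± 1.92 (SD, n = 5 each), a difference of 3.41, or 2.61 without ibudilast 3. For Syn3 to Syn1 the difference was 1.95 and for Rab3c to Rab3a 1.45, from -5.87 ± 0.48 to -4.42 ± 0.28. For Sv2c to Sv2a it was 0.87, and 0.65 without ibudilast 3. With 1 library left out, the differences of the 4 stayed above 0 and ran from 2.61 to 3.89, 1.80 to 2.12, 0.65 to 1.00 and 1.31 to 1.63. None of the 4 passed without ibudilast 1, ibudilast 2, ibudilast 4 or ibudilast 5 (permutation adjusted p of 0.054 to 0.0675). Syt2/Syt1 also did not pass without any 1 untreated library, nor Sv2c/Sv2a and Rab3c/Rab3a without ibudilast 3, over the same range of adjusted p. With 1 library left out the 126 arrangements give no p below 0.00794, at which 3 ratios are the fewest that could pass. A lost call in these tests is therefore not by itself a smaller difference. With a pseudocount of 1 CPM Sv2c/Sv2a did not pass (0.75, permutation adjusted p = 0.0675).

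**Figure D2:**
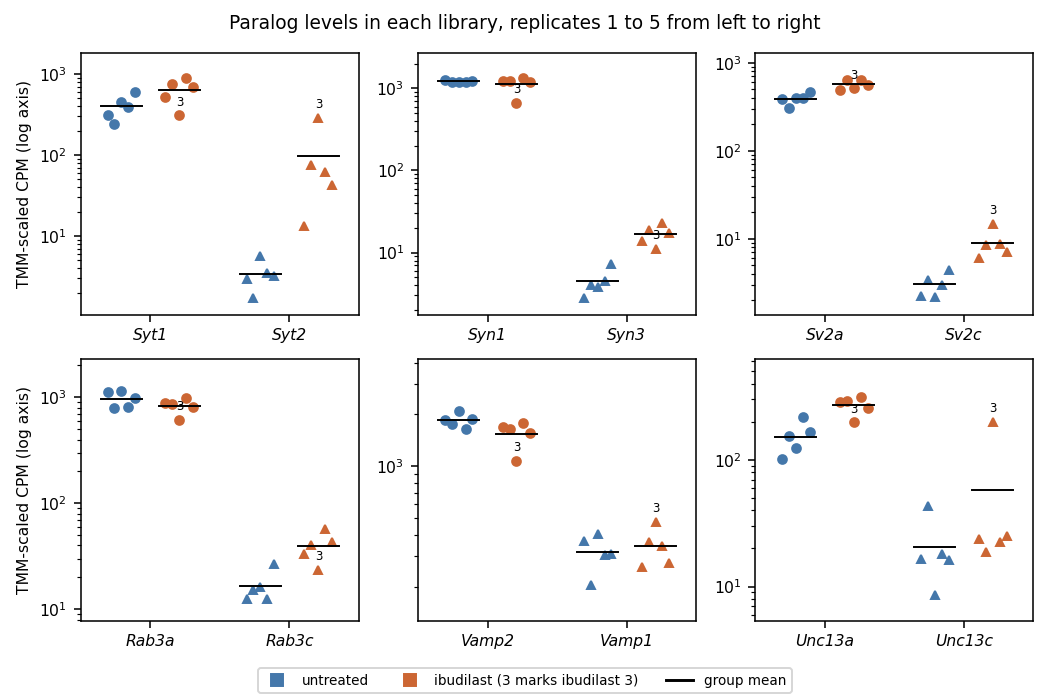
Levels of 6 pairs of paralogs in each of the 10 libraries (y axis, TMM-scaled CPM, log axis; circles the first gene and triangles the second, bars the group means). Syt2, Syn3 and Sv2c lie higher in every treated library, Rab3c overlaps through untreated 5, and the library marked 3 holds the highest Syt2, Vamp1 and Unc13c values.

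The other 13 ratios did not pass. Vamp1 to Vamp2 went from -2.57 ± 0.32 to -2.18 ± 0.60 (SD, n = 5 each; exact permutation p = 0.286, adjusted 0.442), and ibudilast 3 had the highest ratio of the 10. Without ibudilast 3 the difference was 0.13, against 0.38 with all libraries. Rab3b to Rab3a and Syt11 to Syt4 had differences of 0.88 and 0.65 (exact permutation p = 0.0397 for each, adjusted 0.112). Rab3b/Rab3a passed without untreated 2 (1.12, permutation adjusted p = 0.0337), and Syt11/Syt4 without ibudilast 3 (0.88, permutation adjusted p = 0.045). Pclo to Bsn and Rims2 to Rims1 differed by 0.37 and 0.35 (exact permutation p = 0.0635 for each, adjusted 0.135). Syn2 to Syn1 had a difference of -0.02 and Unc13b to Unc13a of 0.17 (exact permutation p = 0.897 and 0.389, adjusted 0.937 and 0.509). Both Unc13b and Unc13a rose, so their ratio differed less between the groups than either gene did. Unc13c to Unc13a differed by 0.09, and by -0.64 without ibudilast 3.

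**Figure D3:**
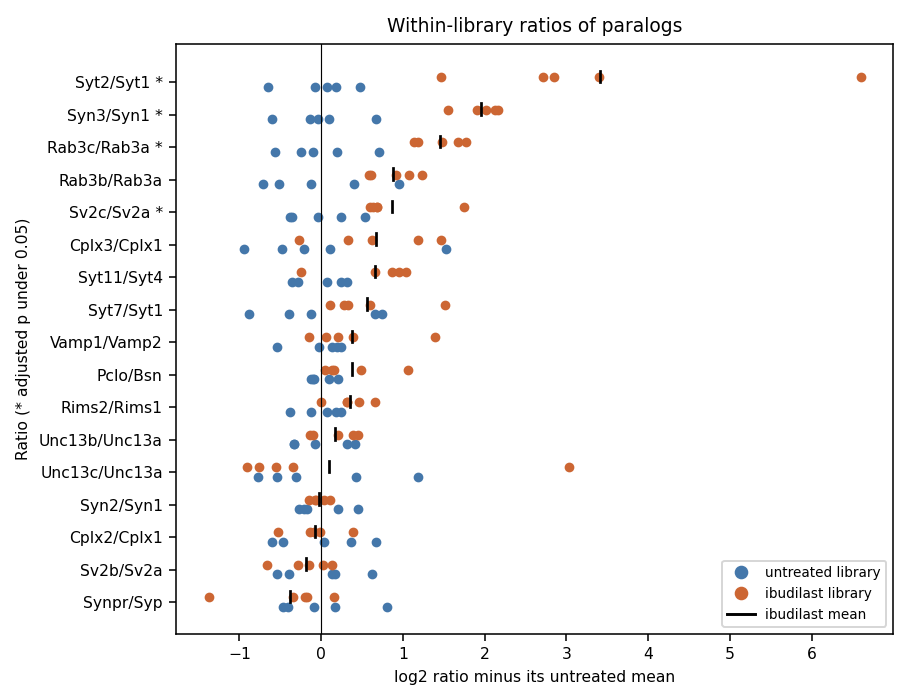
Within-library log2 ratio of each of the 17 pairs, minus the mean of the untreated libraries (x axis; blue untreated and orange ibudilast libraries, black bars the ibudilast mean), with pairs past the adjusted threshold starred. The 4 starred pairs show no overlap of the colours, and 1 ibudilast library lies far to the right in Syt2/Syt1, Sv2c/Sv2a and Unc13c/Unc13a.

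The libraries of a group were not alike for these genes. Ibudilast 4 had the highest of the 5 treated values for 24 of the 34 genes, and ibudilast 3 the lowest for 22 and the highest for 5 (Syt2, Sv2c, Pclo, Vamp1 and Unc13c). In the untreated group, untreated 5 was highest for 17 genes and untreated 2 lowest for 15. How often each library was extreme over all tested genes was not counted, so these counts are not shown to be particular to the 34. The neocortical marker sum was highest in ibudilast 4 as well, at 842 CPM, followed by ibudilast 2 (780.1 CPM), ibudilast 5 (623 CPM), ibudilast 1 (436 CPM) and ibudilast 3 (310.3 CPM). Its part in the results was not tested beyond the fit with its score, given after the map of levels by library. Of the 9 neocortical markers 7 rose, and of 9 tested hippocampal principal cell markers 5 fell, where 20.0% of all tested genes rose and 18.5% fell. Of 9 interneuron markers 4 rose (Gad2, Kcnc1, Kcnc2 and Erbb4), and their sum was between 477 and 859.6 CPM in untreated rats and between 758 and 1758 CPM in treated rats. The 12 thalamic and other subcortical markers, 4 of which rose and 1 fell, summed to between 179 and 267 CPM in untreated rats and between 249.9 and 553 CPM in treated rats, the highest in ibudilast 3. General neuron markers summed to between 3765 and 5414 CPM in untreated rats and between 3876 and 4613 CPM in treated rats, with Rbfox3 rising and Nefl falling of 8. Microglia and astrocyte markers, with 5 of 6 and 3 of 6 falling, summed to between 349 and 539 CPM in untreated rats and between 167 and 332 CPM in treated rats, and to between 3334 and 5137 CPM in untreated rats and between 1960.3 and 3146 CPM in treated rats. In the other lists 3 of 4 tested cerebellar and 2 of 6 meningeal markers rose and 0 fell. Called in either direction were 0 of 6 oligodendrocyte, 0 of 3 tested choroid plexus and 0 of 1 tested pituitary markers.

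**Figure D4:**
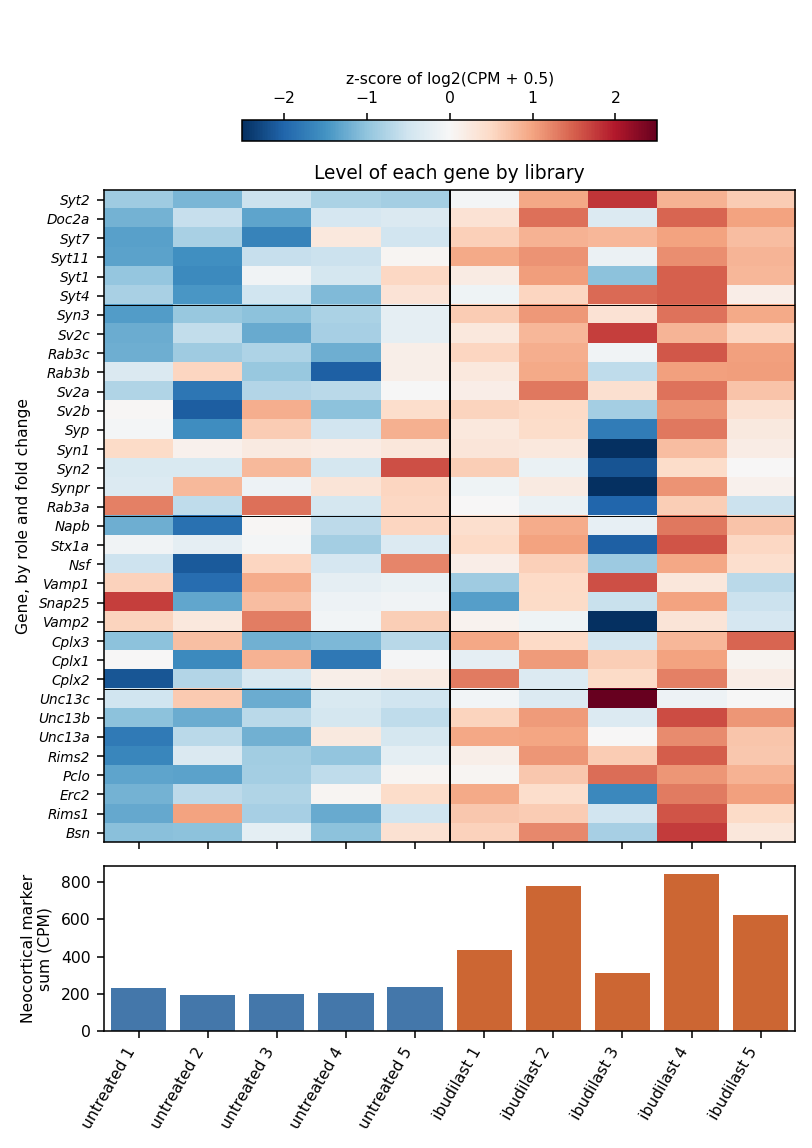
Upper panel: level of each of the 34 genes in each library, as the z-score of log2(CPM + 0.5) over the 10 libraries (red high, blue low), with rows grouped by role and the black vertical line between untreated and ibudilast. Lower panel: summed level of the 9 neocortical markers in the same libraries, highest in ibudilast 4 at 842 CPM, the treated library with the highest value in 24 of the 34 rows. The same count over all tested genes was not made.

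With a score of the neocortical markers as a covariate, 3 of the 34 genes were called higher (Syt2, Sv2c and Unc13c) and Syn1 and Synpr lower, and the median log2 fold change was 0.036 in place of 0.60. Over all 11682 genes tested this fit called 947, of which 768 were higher and 179 lower. Without the score 4497 were called, 2337 higher and 2160 lower. With a score of hippocampal principal cell markers as a covariate 6 genes were called higher (Syt2, Syn3, Syt7, Syt11, Unc13a and Unc13b) and 0 lower, with a median of 0.44. Over all genes that fit called 750 higher and 654 lower. The neocortical score did not overlap between the groups (-0.83 to -0.54 without and -0.28 to 1.34 with the drug), so neocortical signal and treatment cannot be told apart in these libraries. The libraries with high cerebellar, meningeal or choroid plexus markers were ibudilast 3, ibudilast 5 and untreated 1. Without these 3 together 15 of the 34 genes rose and 0 fell, 12 of them among the 15 found with all libraries. Of the 11720 genes tested in that fit 1755 rose and 1357 fell. Ibudilast 1, with the highest sum of pituitary markers, stayed in it.

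Many of these genes are long, and fold changes were higher in longer genes across the whole table. Span, the distance from the first to the last base of the gene in RefSeq GRCr8, placed 13 of the 34 genes in the decile of longest genes, where the median log2 fold change over all genes was 0.38 and 38.2% rose. In the decile of shortest genes the median was -0.31. Of the 34 genes 28 lay above the median of their own span decile. Doc2a and Cplx3, with spans of 5.75 and 6.76 kb, rose by 1.47 and 1.01 on the log2 scale in a decile with a median of -0.19. Syn2 and Synpr, at 158 and 327 kb, lay at -0.16 each in the decile with the median of 0.38. Over the 34 genes Spearman's rho between span and log2 fold change was 0.28, and over all genes with a span 0.34, where genes of 1 library set share depth and composition and are not independent. With the trend removed 12 of the 34 rose and 0 fell, and their median log2 fold change was 0.32 in place of 0.60. Over all 11682 genes tested that fit called 1835 higher and 2124 lower. Pclo (0.32), Rims2 (0.31) and Napb (0.49) did not pass in it.

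**Figure D5:**
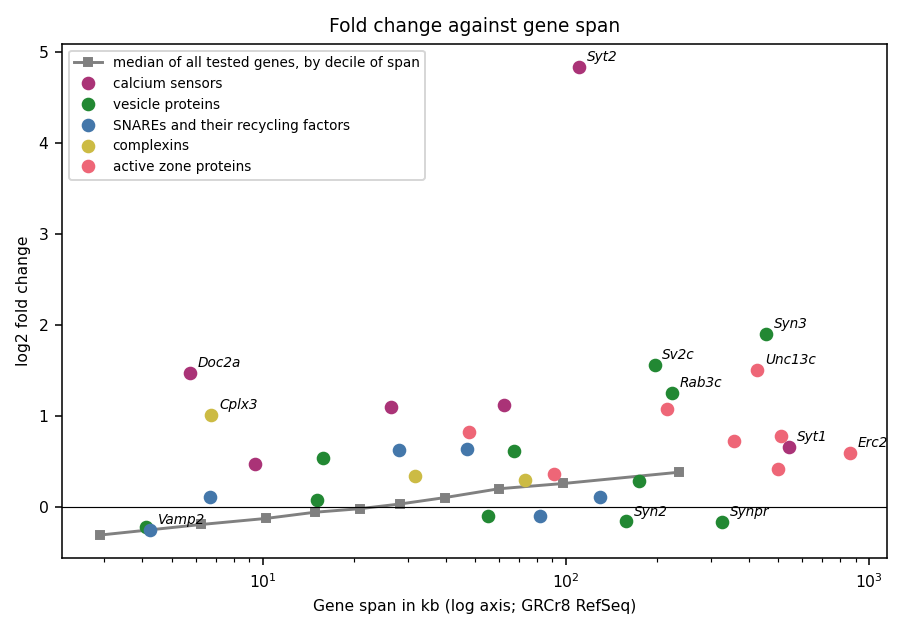
Log2 fold change (y axis) of the 34 genes against gene span (x axis, kb, log axis), coloured by role, with the median of all tested genes in each decile of span in grey. The grey line climbs from -0.31 to 0.38, and 28 of the 34 points lie above the median of their decile.

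Of 87 other presynaptic genes from a written list, 82 were in the table and 81 were tested, of which 28 rose (34.6%) and 7 fell, against 20.0% and 18.5% of all genes. Other active zone genes had the highest share called higher of the 6 roles on that list, 10 of 19, and 0 were called lower. Rims3 encodes a short RIM isoform that lacks the vesicle-binding domain, and stood at 4.42, 4.53, 5.33, 2.15 and 6.90 CPM in untreated 1 to 5 and at 24.4, 64.0, 38.4, 77.1 and 35.7 CPM in ibudilast 1 to 5. No treated library came near the untreated range (log2 fold change 3.36 ± 0.36, SE; edgeR adjusted p = 0.000664). Rims4, its short relative, rose too (log2 fold change 1.96 ± 0.22, SE; edgeR adjusted p = 0.000664), and Apba1, an adaptor that binds Munc18 and the amyloid precursor protein, went from 76.9 ± 19.8 to 177 ± 22.7 CPM (SD, n = 5 each; edgeR adjusted p = 0.00105). Among other SNARE genes and partners 6 of 15 rose and 3 fell. Stxbp5l, a tomosyn that holds SNARE assembly back, rose by 1.52 ± 0.23 (SE), and Snapin, which binds SNAP25, fell by 0.51 (edgeR adjusted p = 0.00126 and 0.00718).

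Among other vesicle proteins 4 of 16 rose and 1 fell. Called higher were 25% of these, 25% of the other synaptotagmins, 33.3% of the transmitter transporters and 23.5% of the endocytosis genes. Over all tested genes 20.0% rose and 18.5% fell. Syngr1, a relative of synaptophysin, went from 52.0 ± 25.7 to 159.6 ± 28.6 CPM, Dnajc5, a vesicle chaperone, from 42.4 ± 10.1 to 87.3 ± 11.0 CPM, and Rph3a, a partner of Rab3, from 177 ± 38.0 to 410.2 ± 125 CPM (SD, n = 5 each; edgeR adjusted p = 0.00217, 0.00127 and 0.00226). Of 8 other synaptotagmins Syt13 and Syt10 rose (log2 fold changes 1.11 ± 0.21 and 1.76 ± 0.44, SE; edgeR adjusted p = 0.00267 and 0.01). In the 6 transmitter transporters Slc6a17, a vesicle transporter of amino acids, and Slc32a1, the vesicle GABA transporter, rose by 0.89 and 0.55, and Slc17a8, a vesicle glutamate transporter, fell by 1.21 (edgeR adjusted p = 0.00445, 0.0373 and 0.0444). Slc32a1 and Slc17a8 did not pass in 6 and in 8 of the 10 fits with 1 library left out, where their log2 fold changes ran from 0.43 to 0.71 and from -1.51 to -1.01. In vesicle endocytosis 4 of 17 rose and 2 fell. Dnm3, a dynamin of membrane fission, went from 22.0 ± 5.81 to 87.4 ± 29.8 CPM (SD, n = 5 each; edgeR adjusted p = 0.00098). Itsn1, an endocytic scaffold gene, rose by 0.25 and Cltb, a clathrin light chain gene, fell by 0.31 (edgeR adjusted p = 0.02 and 0.0189). Itsn1 did not pass without untreated 1 (0.22) or ibudilast 4 (0.23), and Cltb not without ibudilast 5 (-0.28). Rims3, Rims4, Stxbp5l and Dnm3 were called higher under either marker score as a covariate, with log2 fold changes of 2.39, 1.47, 1.67 and 1.96 under the neocortical score. The other genes named in this paragraph and the one before did not pass under that score (edgeR adjusted p of 0.0642 for Snapin to 0.934 for Syt10). Of them, Apba1, Dnajc5, Syngr1, Rph3a and Syt13 passed under the hippocampal score.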

How the data were processed

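Libraries were stranded mRNA libraries, per the labels' protocols. The deposited expected counts are estimated counts per gene; the submitters' processing notes name RSEM 1.2.15, Bowtie2 2.1.0, bcl2fastq 2.17, edgeR and build rn6, and no annotation or strand setting of the counting is known here. The signal table deposited beside them holds CPM, which the authors scaled with TMM factors, as recomputation shows. Recomputed values matched 99.9% of its nonzero values within 0.1%. Counts (10.6% to 11.3% of values not whole) were rounded and tested with edgeR 4.0.16 in R 4.3.3 (filterByExpr, TMM, quasi-likelihood test, Benjamini-Hochberg over 11682 genes). Standard errors follow from the test statistic. Ratios used a pseudocount of 0.5 CPM and two-sided exact permutation. The members, lists and alternatives were chosen with earlier results of these data known. All 34 members are named, with up to 3 called genes of smallest p from each role of the other presynaptic list and the most abundant marker of a list. A gene that this rule names is not reported here. The other marker genes in the text were picked with their values in view. Alternatives included DESeq2 1.42.0, limma 3.58.1 on the deposited CPM, and each library left out. The edgeR and permutation code was tested on simulated data. The 25 symbols counted as date-like are those of the count table that the deposited CPM lacked, and they include no member.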

Additional observations from a re-analysis of the deposited data

Results flagged for a closer look

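Within a group of 5, a library was singled out where its gap to the nearest other library exceeded Dixon's critical share of the group's range. Of 102 such groups, over the 34 genes and 17 ratios, 9 were singled out. For independent normal values the limit singles out about 1 in 20. The ratios reuse the same genes and normality was not tested, so no excess over chance can be read from the 9. Ibudilast 3, the library with cerebellar markers at 3795 CPM, accounted for 5. It had Syt2 at 287 CPM against 75.1 CPM in the next highest library, Unc13c at 200.5 CPM against 24.8 CPM in the next highest library and Syn1 at 672 CPM against 1202 CPM in the next lowest library. Its log2 ratio of Sv2c to Sv2a was -5.07 against -6.13 in the next library, and that of Unc13c to Unc13a was 0.0163 against -3.35. Untreated 2 had Cplx3 at 33.0 CPM against 14.6 CPM in the next highest library, Rims1 at 374 CPM against 253 CPM in the next highest library and Unc13c at 43.0 CPM against 18.1 CPM in the next highest library. Untreated 5 had Rab3c at 26.8 CPM against 16.1 CPM in the next highest library. Whether these values come from the tissue in those libraries was not tested.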

How the results depend on the processing

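Under other scaling factors and filters, DESeq2, limma on the deposited CPM, the animal tag range as a covariate, and each library left out, 12 to 21 of the 34 genes were called higher and 0 lower. Over all tested genes the same fits called 1843 to 2576 higher and 1615 to 2521 lower. Signs turned under the neocortical score as a covariate for Syp -0.58, Sv2b -0.37, Rab3b -0.45, Syt1 -0.66, Doc2a -0.0887, Stx1a -1.33, Nsf -0.28, Napb -0.0107, Bsn -0.21, Rims1 -0.12, Erc2 -0.68, Syt10 -0.0945, under the hippocampal score for Syp -0.000705, Vamp1 -0.16, Cplx1 -0.0122, with the span trend removed for Sv2b -0.0425, Nsf -0.17, Rims1 -0.0748, Itsn1 -0.0839, and without ibudilast 3, ibudilast 5 and untreated 1 together for Syn1 0.0659, Synpr 0.0365, Snap25 0.0601, Unc13c -0.00321, Sv2b/Sv2a 0.00352, Unc13c/Unc13a -0.63. With 1 library left out log2 fold changes crossed 0 for Syp (-0.0249 to 0.19), Vamp1 (-0.0283 to 0.21), Syn2 (-0.23 to 0.000358), Syn1 (-0.17 to 0.044) and Synpr (-0.42 to 0.0756), and ratio differences for Cplx2/Cplx1 (-0.22 to 0.0928), Syn2/Syn1 (-0.0933 to 0.0892) and Unc13c/Unc13a (-0.64 to 0.39). With the neocortical score 768 of all genes were called higher and 179 lower, 3 and 2 of the 34, and 10 and 1 of the other presynaptic genes. With the hippocampal score these were 750 and 654 of all genes, 6 and 0 of the 34, and 12 and 0 of the others. With the span trend removed 17 of the others were called higher. Without the 3 libraries named above 1357 of all genes and 3 of the others were called lower. With 1 library left out 4 to 9 of the others were called lower, and 0 to 4 of the 17 ratios differed. The ratio count was 0 without the 3 libraries together, where the 35 arrangements give no p below 0.0286 and 10 ratios would have to reach it for any to pass; the differences were then 2.62 for Syt2/Syt1, 1.76 for Syn3/Syn1, 1.32 for Rab3c/Rab3a and 0.56 for Sv2c/Sv2a. It was also 0 in a sign-flip test of same-numbered differences (replicate block), where 5 pairs cannot give p below 0.0625. Same-numbered libraries did not deviate together (correlations of -0.13 to 0.021, and none correlated best with its own number). That shows no shared deviation by number, and it cannot exclude that the rats were paired. With the replicate number as a block 13 of the 34 genes were called higher and 0 lower, and 1874 and 1661 of all genes. Syt4, Napb, Slc32a1 and Itsn1 did not pass in that fit. Cplx3 (0.96) and Napb (0.59) did not pass with upper quartile scaling, nor Napb without the filter on low counts, Cplx3 with the tag range, or Snapin (-0.24) with the span trend removed. Slc17a8 did not pass with limma, without the filter or with the tag range. Counting error weighs on genes at low levels, among them Syt2, Syn3 and Sv2c (at most 5.61, 7.17 and 4.41 CPM in untreated libraries), Syt10 (0.884 to 2.28 CPM in untreated) and Slc17a8 (1.41 to 4.30 CPM in treated libraries). The causes of these changes were not tested.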
